A study of Mus musculus with 6 samples.

Results

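The 9 genes *Cx3cr1*, *Ccr1*, *Ccr2*, *Ccr3*, *Ccr7*, *Cxcr2*, *Cxcr3*, *Cxcr4* and *Cxcr5* encode chemokine receptors. They were taken by gene name from a deposited table of 54532 mouse genes, in which each had 1 row. The table holds RNA-sequencing read counts of 6 libraries of mouse leukemia cells driven by RUNX1-ETO9a (RE9a), a shortened form of the fusion protein of t(8;21) acute myeloid leukemia. Lineage-negative fetal liver cells were infected with an RE9a-GFP retrovirus and transplanted serially into male mice, and GFP+ leukemia cells were sorted from the bone marrow. The 3 *WT Phf6,RE9a* libraries (replicates 1, 2 and 3) came from *Phf6 fl/y* cells without Cre, and the 3 *VC Phf6,RE9a* libraries (replicates 11, 12 and 13) from *Vav1-Cre;Phf6 fl/y* cells. Both groups carried the floxed *Phf6* allele and the RE9a virus. The comparison asks how receptor RNA differed with loss of Phf6, a chromatin-binding protein of the nucleus. Only the *VC Phf6,RE9a* cells carried Cre, so loss of Phf6 and presence of Cre cannot be told apart. *Vav1*-Cre acts throughout the blood system and not in a single blood cell type. Whether each library came from its own leukemia or mouse, and from which transplant passage, is not in the labels, and p-values measure only the spread between these libraries.

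Chemokine receptors are G-protein-coupled receptors that turn a gradient of chemokine outside a cell into movement, mostly through Gi proteins. CXCR4 holds blood stem cells and immature neutrophils in the bone marrow through its ligand CXCL12, while CXCR2 draws mature neutrophils out of the marrow. CCR2 brings classical monocytes from marrow to tissue, CX3CR1 marks monocytes and their progeny, and CCR7, CXCR3 and CXCR5 guide lymphocytes and dendritic cells.

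Total counts per library ran from 15675358 to 16817994. Counts were scaled to CPM (counts per 1000000 reads, over a library size adjusted by edgeR's TMM), and 14169 genes with enough counts were tested with edgeR's quasi-likelihood test. At an adjusted p under 0.05, 44.2% of the genes tested differed between the groups, 21.5% higher and 22.7% lower in *VC Phf6,RE9a* cells. *Phf6* had 1044, 827 and 1142 counts in *WT Phf6,RE9a* and 388, 314 and 331 in *VC Phf6,RE9a* libraries, a fitted log2 change of -1.67 ± 0.13 (SE, adjusted p = 9.32e-05). The source of the *Phf6* reads left in the *VC Phf6,RE9a* libraries was not tested. The median log2 fold change of all genes tested was 0.01. Genes for GFP and for the RE9a fusion were not analysed here, so the sort was not checked by them. In *WT Phf6,RE9a* libraries the mast cell and basophil markers were abundant, with 12 genes summing to 27940, 30770 and 19470 CPM.

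Of the 9 receptors, 7 had a promoter sequence in the RefSeq table used (GRCm38.p6, 250 bases before to 50 bases after the start), and *Ccr7* and *Cxcr5* did not. The promoters of the 3 receptors with the largest called changes are shown, since their RNA moved in opposite directions. Capitals mark matches on either strand. The letters searched were TGTGGT for RUNX factors, AGAGGAAGT for PU.1, TTGCNNAA for C/EBP and GGGANTTTC for NF-kB. The TATA box was searched as TATAAA. *Cx3cr1* lies at chr9:120068247-120068546 on the minus strand, *Cxcr2* at chr1:74153744-74154043 on the plus strand and *Cxcr4* at chr1:128592250-128592549 on the minus strand.
Cx3cr1: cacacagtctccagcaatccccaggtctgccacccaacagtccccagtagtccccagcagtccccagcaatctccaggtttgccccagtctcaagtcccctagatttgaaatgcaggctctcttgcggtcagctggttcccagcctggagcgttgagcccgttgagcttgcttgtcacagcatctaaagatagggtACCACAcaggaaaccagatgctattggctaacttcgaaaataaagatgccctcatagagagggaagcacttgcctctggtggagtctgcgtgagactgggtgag
Cxcr2: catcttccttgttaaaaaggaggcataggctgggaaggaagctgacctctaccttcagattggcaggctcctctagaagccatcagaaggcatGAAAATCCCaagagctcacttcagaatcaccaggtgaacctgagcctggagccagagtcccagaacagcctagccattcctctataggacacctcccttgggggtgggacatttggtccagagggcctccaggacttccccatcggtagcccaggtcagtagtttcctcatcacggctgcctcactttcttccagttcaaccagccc
Cxcr4: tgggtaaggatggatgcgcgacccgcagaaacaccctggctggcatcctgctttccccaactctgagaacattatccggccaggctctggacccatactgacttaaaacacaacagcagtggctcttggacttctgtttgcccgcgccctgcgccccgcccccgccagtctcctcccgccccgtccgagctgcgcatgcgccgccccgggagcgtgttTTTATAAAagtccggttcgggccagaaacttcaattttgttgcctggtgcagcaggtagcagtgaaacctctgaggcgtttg
The *Cx3cr1* window held 1 RUNX match, and the *Cxcr4* window held a TATA box read on both strands with the 2 matches overlapping. The *Cxcr2* window held 1 NF-kB match, which is lost if a further C is asked at its end. None of these letters was found in the *Ccr2* window. *Ccr1* held 1 RUNX match, *Ccr3* held 1 NF-kB match, and *Cxcr3* held 2 RUNX matches and 1 PU.1 match. The NF-kB match of *Ccr3* is kept if the further C is asked at its end. Over 32851 mouse promoters of this length, 16.76% held the RUNX letters, 13.62% the TATA box, 10.8% the C/EBP letters, 1.111% the NF-kB letters and 1.005% the PU.1 letters. A match describes the letters and is no evidence of binding.

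Among the 9 receptors, *Cx3cr1* and *Ccr2* were lower and *Cxcr2* and *Cxcr4* higher in *VC Phf6,RE9a* cells, and *Ccr1* and *Ccr3* did not pass the test. *Ccr7*, *Cxcr3* and *Cxcr5* had too few counts to enter it. The 4 called receptors were 66.67% of the 6 tested, beside 44.2% of all genes tested. The same 4 receptors had groups that did not overlap, as had 57.3% of all genes tested (28.9% with *VC Phf6,RE9a* above and 28.4% below). The median log2 fold change of the 6 was 0.34, but it turned to -0.035 without *VC Phf6,RE9a* replicate 12. Without *WT Phf6,RE9a* replicate 1, 2 or 3, or without *VC Phf6,RE9a* replicate 13, *Ccr7* entered the test as well. The median of the 7 receptors then tested was 0.82, 0.297 and 0.375 without *WT Phf6,RE9a* replicates 1, 2 and 3. It was 0.69 without *VC Phf6,RE9a* replicate 13. For the 4 with at least 10 counts in every library it was 1.34. With so few genes, these shares say little about the family, and the receptors are described 1 by 1.

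**Figure D1:**
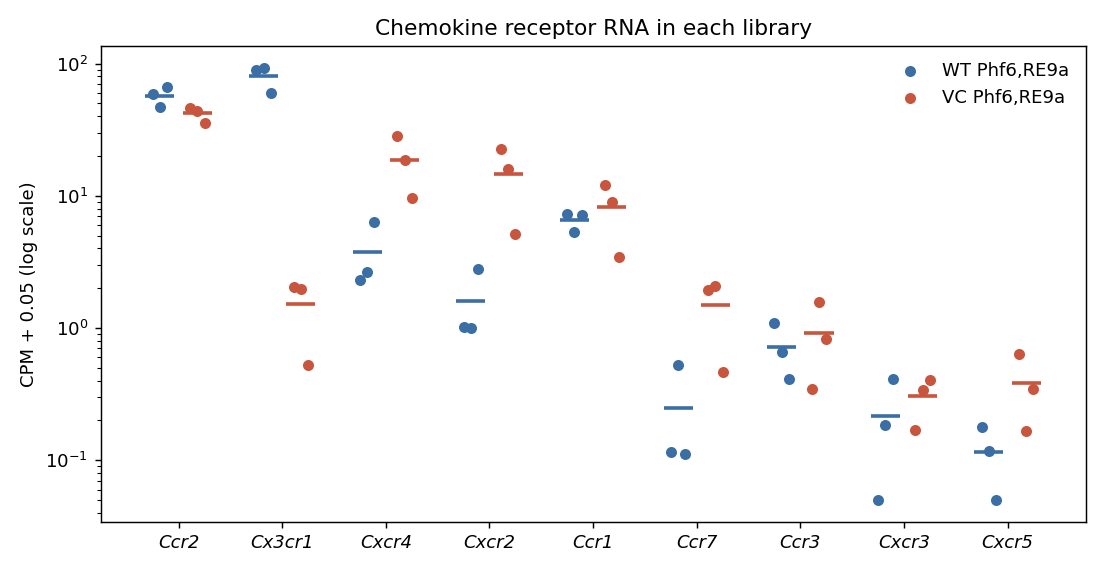
Level of each receptor in each library, as CPM + 0.05 on a log scale, with *WT Phf6,RE9a* libraries in blue, *VC Phf6,RE9a* libraries in red and horizontal lines at group means. *Cx3cr1* runs from 60.2 to 93.2 CPM in the *WT Phf6,RE9a* and from 0.475 to 2.01 CPM in the *VC Phf6,RE9a* libraries, while *Cxcr2* and *Cxcr4* lie higher in the *VC Phf6,RE9a* libraries.

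*Cx3cr1*, the receptor for the membrane-bound chemokine CX3CL1, fell most. Its row (ENSMUSG00000052336) lies on chromosome 9 of GRCm38 from 119901616 to 120069879, minus strand. Counts were 1384, 1373 and 995 in *WT Phf6,RE9a* and 34, 33 and 8 in *VC Phf6,RE9a* libraries. Every *VC Phf6,RE9a* library lay far under every *WT Phf6,RE9a* library. Mean levels were 81.1 ± 18.1 and 1.47 ± 0.861 CPM (SD, n = 3), and the fitted change was 54.8-fold. The log2 fold change was -5.78 ± 0.39 (SE, 95% interval -6.69 to -4.86), with an adjusted p of 5.87e-05 by edgeR's quasi-likelihood test. Of the 14169 genes tested, 88 had a lower log2 fold change.

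No monocyte and macrophage marker was called lower beside *Cx3cr1*. Of 11 markers tested, 4 were higher and 0 lower in *VC Phf6,RE9a* cells (36.36% called, beside 44.2% of all genes tested). The sum of the 11 markers went from 41.8, 59.5 and 69.1 to 171, 118 and 89.2 CPM. *Ly6c2*, a marker of classical monocytes, rose with a log2 fold change of 2.28 (adjusted p = 0.00338), and *Csf1r*, the receptor for the main monocyte growth factor, had a log2 fold change of 0.58 (adjusted p = 0.2). Of the 12 mast cell and basophil markers, 11 were called lower (91.67%, beside 44.2% of all genes tested). They summed to 4978, 5067 and 5429 CPM in the *VC Phf6,RE9a* libraries, all 12 included. The remaining marker, *Ms4a2*, stood at means of 1180 and 1076 CPM and did not pass (log2 fold change -0.13, edgeR adjusted p = 0.519). Within that list the protease genes *Cpa3* (log2 fold change -4.62, adjusted p = 0.000103) and *Mcpt8* (log2 fold change -2.06, adjusted p = 0.00811) fell. In bulk RNA, fewer cells of a type and less RNA per cell cannot be told apart, and the part of these markers in the fall of *Cx3cr1* was not tested.

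The *Cx3cr1* row spans 168.3 kb because of 1 annotated transcript, Cx3cr1-202, which is 166.7 kb long, while Cx3cr1-201 and Cx3cr1-203 are 19.6 and 21.2 kb long. The row overlaps 9 other genes of the table, which were looked at after the fall of *Cx3cr1* was known. In exons it shares 78 bases with the antisense gene *Gm33858*, 1.731% of its 4505 exonic bases, and none with the others. *Gm33858* had 6, 16 and 5 counts against 1, 0 and 0, far fewer than *Cx3cr1*. Including *Cx3cr1* itself, 6 of the 10 genes were tested, 3 lower and 1 higher in *VC Phf6,RE9a* cells, beside 44.2% of all genes tested that differed. *Csrnp1*, a nuclear protein gene, had 5320, 6124 and 3267 counts in *WT Phf6,RE9a* and 1241, 880 and 828 in *VC Phf6,RE9a* libraries (log2 fold change -2.46, standard error 0.29, adjusted p = 0.000481). *Xirp1* had 12, 28 and 14 counts against 0, 0 and 0, which at a limit of 3 counts per library is at least 6.65-fold lower (adjusted p = 0.00355). *Ttc21a* had 5, 1 and 1 counts against 21, 34 and 12, with a log2 fold change of 3.06 (adjusted p = 0.0087). *Wdr48* and *Gorasp1* did not pass the test (log2 fold change 0.07 with adjusted p = 0.548, and -0.26 with adjusted p = 0.168). With limma on log2(FPKM + 1) the calls of *Xirp1* (adjusted p = 0.0581) and *Ttc21a* (adjusted p = 0.0618) were lost.

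*Cxcr4* and *Cxcr2*, with opposed roles in the release of neutrophils from marrow, were both higher in *VC Phf6,RE9a* cells. *Cxcr4* (ENSMUSG00000045382, chromosome 1, 128588199 to 128592293, minus strand), the CXCL12 receptor, had 35, 38 and 103 counts in *WT Phf6,RE9a* and 476, 320 and 160 in *VC Phf6,RE9a* libraries. The groups did not overlap, though *WT Phf6,RE9a* replicate 3 was the highest of its group and *VC Phf6,RE9a* replicate 13 the lowest of its own. Mean levels rose from 3.69 ± 2.2 to 18.7 ± 9.3 CPM (SD, n = 3), and the fitted change was 5.04-fold. The log2 fold change was 2.33 ± 0.5 (SE, 95% interval 1.17 to 3.5), with an adjusted p of 0.00758 by edgeR's quasi-likelihood test, and 535 genes tested had a higher one.

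*Cxcr2* (ENSMUSG00000026180, chromosome 1, 74153989 to 74161246, plus strand), the receptor for CXCL1, CXCL2 and their kin, had 15, 14 and 45 counts in *WT Phf6,RE9a* and 384, 271 and 86 in *VC Phf6,RE9a* libraries. The same libraries, replicates 3 and 13, lay nearest to the other group. Mean levels rose from 1.55 ± 1.02 to 14.5 ± 8.85 CPM (SD, n = 3), for a fitted change of 9.26-fold. The log2 fold change was 3.21 ± 0.63 (SE, 95% interval 1.74 to 4.68), with an adjusted p of 0.00516 by edgeR's quasi-likelihood test, and 277 genes tested had a higher one. Of the 3039 stretches of 50 bases in its exons, 122 (4.014%) also occur in exons of other genes. Whether this makes any of its reads uncertain was not tested.

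Neutrophil markers moved with both receptors. All 11 markers on the list were higher in *VC Phf6,RE9a* cells (100% called, beside 44.2% of all genes tested). Their sum was 201, 165 and 507 CPM in *WT Phf6,RE9a* and 3867, 2485 and 1016 CPM in *VC Phf6,RE9a* libraries. *S100a8* and *S100a9*, the subunits of calprotectin, each had a log2 fold change of 3.2 (adjusted p = 0.00329 and 0.00391). The libraries stood in nearly the same order for the markers and for the receptors, with *WT Phf6,RE9a* replicate 3 highest in its group and *VC Phf6,RE9a* replicate 13 lowest in its own. This order is not particular to neutrophil markers. The sums of monocyte and macrophage, dendritic cell, T cell and B cell markers had the same highest and lowest libraries. Those of eosinophil, mast cell and basophil, NK cell and erythroid markers did not have both. Per 1000 CPM of neutrophil markers, a ratio formed after the values were seen, *Cxcr2* stood at 4.85, 5.77 and 5.37 CPM in *WT Phf6,RE9a* and 5.86, 6.35 and 5.03 CPM in *VC Phf6,RE9a* libraries, with overlap. The same ratio for *Cxcr4* was 11.3, 15.7 and 12.3 in *WT Phf6,RE9a* and 7.27, 7.5 and 9.36 in *VC Phf6,RE9a* libraries, lower in each of the latter. How much of the change in either receptor goes with neutrophil content was not tested.

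**Figure D2:**
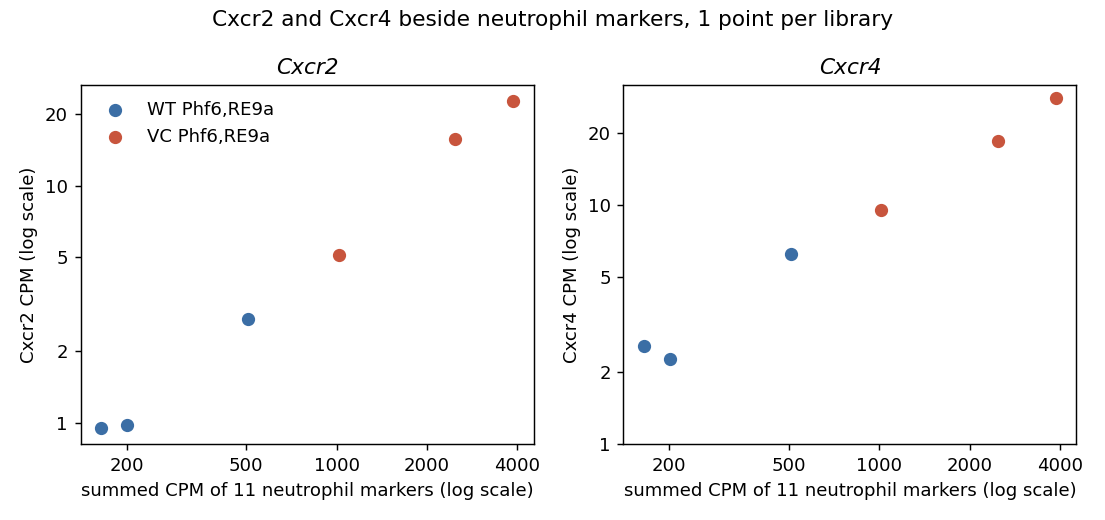
*Cxcr2* (left) and *Cxcr4* (right) in CPM against the summed CPM of 11 neutrophil markers, both axes on log scales, with 1 point per library (*WT Phf6,RE9a* blue, *VC Phf6,RE9a* red). The *WT Phf6,RE9a* libraries lie between 165 and 507 CPM of markers and the *VC Phf6,RE9a* libraries between 1016 and 3867, and each receptor is higher where the markers are higher, save for the 2 lowest libraries of *Cxcr4*.

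*Ccr2*, *Ccr1* and *Ccr3* lie together on chromosome 9, within 151.4 kb. *Ccr2* (ENSMUSG00000049103, 124101950 to 124113557, plus strand), the receptor for CCL2 and CCL7, had 905, 687 and 1096 counts in *WT Phf6,RE9a* and 786, 752 and 597 in *VC Phf6,RE9a* libraries. In CPM the *WT Phf6,RE9a* libraries stood at 58.7, 46.6 and 66.3 and the *VC Phf6,RE9a* libraries at 46.4, 43.8 and 35.5. The groups did not overlap but nearly touched, at 46.6 and 46.4 CPM. The mean went from 57.2 ± 9.95 to 41.9 ± 5.71 CPM (SD, n = 3). The log2 fold change was -0.45 ± 0.16 (SE, 95% interval -0.81 to -0.09), with an adjusted p of 0.0482 by edgeR's quasi-likelihood test. The direction held in each alternative run, but the call was lost in 7 of 11. It was lost when any 1 library other than *WT Phf6,RE9a* replicate 2 was left out (adjusted p from 0.068 to 0.147), with at least 10 counts asked of every library (adjusted p = 0.0527) and with limma on log2(FPKM + 1) (adjusted p = 0.0704). Of its 6758 stretches of 50 bases, 129 (1.909%) also occur in exons of other genes.

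*Ccr1* (ENSMUSG00000025804, 123962124 to 123968692, minus strand), a receptor for CCL3, CCL5 and CCL6 on myeloid cells, had 112, 77 and 117 counts in *WT Phf6,RE9a* and 205, 154 and 57 in *VC Phf6,RE9a* libraries. The *VC Phf6,RE9a* libraries lay on both sides of the *WT Phf6,RE9a* ones. The level was 6.53 ± 1.13 and 8.15 ± 4.42 CPM (SD, n = 3), with a log2 fold change of 0.32 (95% interval -0.66 to 1.3, edgeR adjusted p = 0.574). Without *VC Phf6,RE9a* replicate 11 the sign turned (-0.07).

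*Ccr3* (ENSMUSG00000035448, 124021972 to 124031689, plus strand), the eotaxin receptor of eosinophils, was near the limit of detection. It had 16, 9 and 6 counts in *WT Phf6,RE9a* and 5, 26 and 13 in *VC Phf6,RE9a* libraries, and the groups overlapped. The log2 fold change was 0.36 (95% interval -1.1 to 1.83, edgeR adjusted p = 0.673), and it turned to -0.32 without *VC Phf6,RE9a* replicate 12. Of 8 eosinophil markers tested, 6 were called higher and 0 lower in *VC Phf6,RE9a* cells (75% called, beside 44.2% of all genes tested). The sums of the 8 were 54.3, 55.6 and 76.5 against 132, 184 and 143 CPM. The granule protein genes *Epx* (log2 fold change 3.9, adjusted p = 0.0052) and *Prg2* (3.11, adjusted p = 0.00794) were among those that rose.

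Beside *Ccr1*, *Ccr2* and *Ccr3*, 2 further genes analysed within 100 kb of the *Ccr1* to *Ccr2* interval had too few counts for the test. *Ccr1l1* had at most 3 counts in a library, and the pseudogene *Gm2774* was at 0. Of the 5 genes, 3 were tested, with *Ccr2* lower and 0 higher, beside 44.2% of all genes tested that differed.

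**Figure D3:**
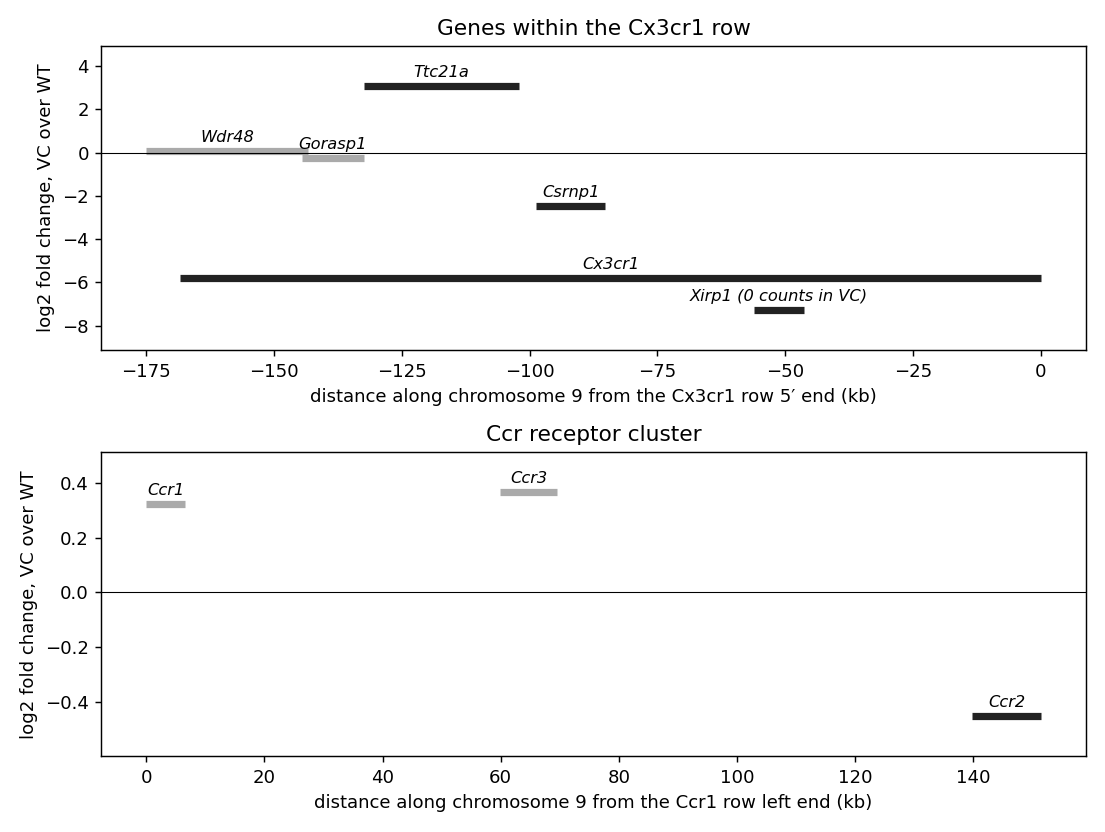
Log2 fold change, *VC Phf6,RE9a* over *WT Phf6,RE9a*, of the tested genes around the *Ccr* cluster and of those overlapping the *Cx3cr1* row, against distance in kb from the left end of the *Ccr1* row (lower panel) and from the 5′ end of the *Cx3cr1* row (upper panel). Each bar spans a gene, black where the adjusted p was under 0.05 and grey where not. *Cx3cr1* stands at -5.78 and *Csrnp1*, inside its row, at -2.46, while *Wdr48* and *Gorasp1* lie near 0. *Xirp1* is drawn at its fitted value, which depends on the prior count because its *VC Phf6,RE9a* counts are 0.

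*Ccr7*, *Cxcr3* and *Cxcr5* were barely read. *Ccr7* (ENSMUSG00000037944, chromosome 11, 99144196 to 99155077, minus strand), which leads lymphocytes and dendritic cells to lymph nodes, had 1, 7 and 1 counts in *WT Phf6,RE9a* and 32, 35 and 7 in *VC Phf6,RE9a* libraries. The groups overlapped, with *WT Phf6,RE9a* replicate 2 at 0.475 and *VC Phf6,RE9a* replicate 13 at 0.416 CPM. Its summed counts were 9 and 74, a ratio of 7.53 over library size (95% exact interval 3.76 to 17.1, counting error only). Without the count filter its log2 fold change was 2.84 (standard error 0.77, adjusted p = 0.0141 from edgeR), and DESeq2 gave 2.87 (adjusted p = 0.0122). Without *WT Phf6,RE9a* replicate 1 or 3 it entered the test and did not pass (adjusted p = 0.0917 and 0.0854), and without replicate 2 or 13 it passed (adjusted p = 0.015 and 0.0127).

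*Cxcr5* (ENSMUSG00000047880, chromosome 9, 44511787 to 44561877, minus strand), the CXCL13 receptor of B cells, had 2, 1 and 0 counts in *WT Phf6,RE9a* and 10, 2 and 5 in *VC Phf6,RE9a* libraries. The summed ratio was 5.19 (95% exact interval 1.5 to 27.7, counting error only), and without the count filter the adjusted p was 0.154. Of its exonic bases 110 (3.301%) are shared with *Bcl9l*, a gene on the opposite strand. *Cxcr3* (ENSMUSG00000050232, chromosome X, 101731535 to 101734269, minus strand), the CXCL9 and CXCL10 receptor of T cells, had 0, 2 and 6 counts in *WT Phf6,RE9a* and 2, 5 and 6 in *VC Phf6,RE9a* libraries. The summed ratio was 1.49 (95% exact interval 0.572 to 4.14), which does not show a difference at this depth. A gene with 0 reads could still stand at up to 3 counts, or 0.175 to 0.203 CPM by library.

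Of 5 tested B cell markers, 4 rose and 0 fell in *VC Phf6,RE9a* cells (80% called, beside 44.2% of all genes tested). The B cell sums were 4.74, 7.06 and 18.3 CPM in *WT Phf6,RE9a* and 86, 93.6 and 31.5 CPM in *VC Phf6,RE9a* libraries. *Cd79a*, a part of the B cell receptor, had a log2 fold change of 3.24 (adjusted p = 0.00254). Dendritic cell markers summed to 3.9 to 12.1 CPM in *WT Phf6,RE9a* and 45.6 to 65.6 CPM in *VC Phf6,RE9a* libraries. Of 5 tested, 2 were higher and 0 lower (40% called, beside 44.2% of all genes tested). *Zbtb46*, a transcription factor gene of classical dendritic cells, had a log2 fold change of 5.41 (adjusted p = 6.39e-05), and *Flt3*, which progenitors also express, one of 0.95 (adjusted p = 0.143). Most of the dendritic sum in *VC Phf6,RE9a* libraries came from *Zbtb46* alone. It stood at 0.325, 1.22 and 1.39 CPM in *WT Phf6,RE9a* and 38.1, 51.8 and 36.8 CPM in *VC Phf6,RE9a* libraries, so the sum says little about the other markers. None of 8 T cell markers had enough counts for the test, and their sum was 1.1, 1.15 and 1.21 CPM in *WT Phf6,RE9a* and 4.13, 2.5 and 1.54 CPM in *VC Phf6,RE9a* libraries, higher in each of the latter. *Cd3e* and *Cd3d* had at most 6 counts in a library, while *Cd8a*, singled out after its values were seen, had 1, 7 and 1 counts against 24, 16 and 4. NK cell markers summed to 1.09 to 2.73 CPM in *WT Phf6,RE9a* and 3.92 to 7.26 CPM in *VC Phf6,RE9a* libraries, with 1 of 1 tested higher, *Eomes* at 0 in *WT Phf6,RE9a* libraries, and *Ncr1* and *Klrb1c* at 5 counts or fewer. Erythroid markers were higher in 6 of 6 (100% called, beside 44.2% of all genes tested), with sums of 1331 to 2038 against 4327 to 4853 CPM. Among them were *Hbb-bs* (log2 fold change 0.92, adjusted p = 0.00461) and *Hba-a1* (2.36, adjusted p = 0.000225). The part of these cells in the receptor counts was not tested.

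Levels of different receptors were compared per length, as RPKM from the counts and the gene length in the table. In *WT Phf6,RE9a* cells the order was *Cx3cr1* (18 RPKM), *Ccr2* (8.47), *Ccr1* (2.3), *Cxcr4* (2.04), *Cxcr2* (0.508), *Ccr3* (0.205), *Ccr7* (0.101), *Cxcr3* (0.0961) and *Cxcr5* (0.0198). *Cx3cr1* and *Ccr2*, *Ccr2* and *Ccr1*, and *Cxcr4* and *Cxcr2* were neighbours whose libraries did not overlap, and the other neighbours overlapped. In *VC Phf6,RE9a* cells the order was *Cxcr4* (10.4 RPKM), *Ccr2* (6.2), *Cxcr2* (4.77), *Ccr1* (2.88), *Ccr7* (0.732), *Cx3cr1* (0.326), *Ccr3* (0.263), *Cxcr3* (0.147) and *Cxcr5* (0.1). There *Ccr1* and *Ccr7* were the one pair of neighbours that did not overlap.

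As a share of the summed RPKM of the 9 receptors, *Cx3cr1* made up 60.1%, 65.3% and 44% in the *WT Phf6,RE9a* and 1.24%, 1.56% and 0.742% in the *VC Phf6,RE9a* libraries. *Cxcr4* went the other way, from 3.79%, 4.5% and 11.3% to 43.4%, 37.8% and 37%. *Cxcr2* went from 0.963%, 0.984% and 2.94% to 20.7%, 19% and 11.8%. The share of *Ccr2* overlapped between the groups, at 26.8% ± 5.29 and 26.6% ± 9.2 (SD, n = 3). The sum itself was 33.2, 31.7 and 30.4 RPKM in *WT Phf6,RE9a* and 35.9, 27.3 and 14.2 RPKM in *VC Phf6,RE9a* libraries, so the groups overlapped. Without *Cx3cr1* it was 13.2, 11 and 17 RPKM against 35.4, 26.8 and 14.1 RPKM. Shares are given as descriptions, with no test run on them.

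**Figure D4:**
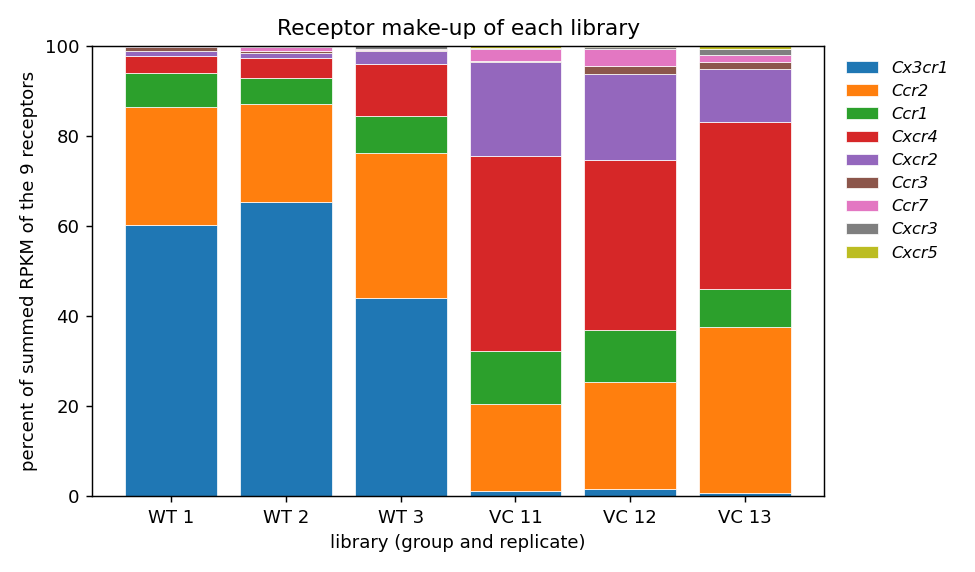
Share of each receptor in the summed RPKM of the 9 receptors, in percent, as 1 stacked bar per library starting at 0. *Cx3cr1* takes 44% to 65.3% of the bar in *WT Phf6,RE9a* and 0.742% to 1.56% in *VC Phf6,RE9a* libraries, where *Cxcr4* takes 37% to 43.4%.

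A list of 14 other receptors of the family was read less. Of 6 tested, *Ackr1* was higher and *Ccr8* and *Ccrl2* lower in *VC Phf6,RE9a* cells (50% called, beside 44.2% of all genes tested), and *Ccr9* (log2 fold change 0.09, adjusted p = 0.822), *Cxcr6* and *Ackr4* did not pass. The median log2 fold change of the 6 was -0.39. When a *WT Phf6,RE9a* library was left out, 7 receptors were tested. Their median was 0.032 without replicate 1, -0.066 without replicate 2 and -0.25 without replicate 3. For the 3 with at least 10 counts in every library it was 0.097. Part of these shifts can come from the change of genes tested. *Ccr8*, a receptor of regulatory and type 2 T cells that lies next to *Cx3cr1* on chromosome 9 (120092114 to 120094906), had 36, 101 and 16 counts against 1, 0 and 0 (adjusted p = 0.00269). *Ccrl2*, a non-signalling receptor that binds chemerin, fell from 34.4 ± 7.73 to 20.7 ± 1.59 CPM (SD, n = 3; log2 fold change -0.73, standard error 0.18, adjusted p = 0.0123). *Ackr1*, the Duffy antigen of red cells, which takes up chemokines without signalling, rose from 7.35 ± 1.8 to 12.8 ± 2.98 CPM (log2 fold change 0.8, standard error 0.26, adjusted p = 0.0387). That call was lost without *WT Phf6,RE9a* replicate 1 or 3 (adjusted p = 0.0968 and 0.099) and without *VC Phf6,RE9a* replicate 11 or 13 (0.123 and 0.114). *Cxcr1*, a further neutrophil receptor named after its values were seen, was not tested and had 0, 3 and 1 counts against 25, 12 and 5. *Ackr2* and *Ackr3* were at 0 in all 6 libraries.

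**Figure D5:**
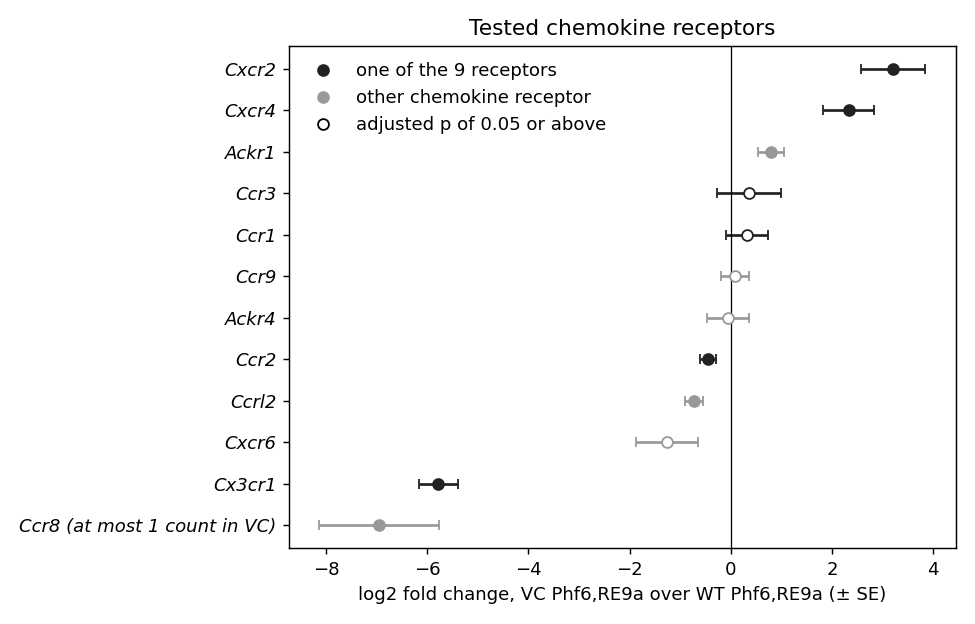
Log2 fold change, *VC Phf6,RE9a* over *WT Phf6,RE9a*, ± SE, for 12 tested chemokine receptors, with the 6 tested of the 9 described in black, 6 tested others in grey and open points where the adjusted p was 0.05 or above. *Cx3cr1* stands at -5.78, *Cxcr4* at 2.33 and *Cxcr2* at 3.21, and the bars of *Ccr1* and *Ccr3* cross 0. *Ccr8*, with at most 1 count in a *VC Phf6,RE9a* library, is drawn at its fitted value, which depends on the prior count.

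Of 23 ligand genes of the 9 receptors, 9 were tested, of which 2 rose and 3 fell in *VC Phf6,RE9a* cells (55.56% called, beside 44.2% of all genes tested). Their median log2 fold change was 0.15. Over the ligands tested in each alternative, the sign of the median was not stable. Without *WT Phf6,RE9a* replicate 2, with 9 ligands tested, it was -0.011. With 10 tested it was -0.38 without *VC Phf6,RE9a* replicate 11 and 0.38 without replicate 13. DESeq2, with 18 tested, gave -0.1. Part of these shifts can come from the change of genes tested. Of the CCR2 ligands on the list, *Ccl2* and *Ccl7* fell, and *Ccl8* and *Ccl12* had too few counts for the test. *Ccl2* went from 17.6 ± 11.3 to 1.22 ± 0.804 CPM (SD, n = 3; log2 fold change -3.85, standard error 0.65, adjusted p = 0.00258), and *Ccl7* had 346, 47 and 124 counts against 0, 1 and 1 (adjusted p = 0.00104). *Ccl3*, a ligand of CCR1, fell as well (11.6 ± 3.07 to 4.16 ± 2.14 CPM, log2 fold change -1.47, adjusted p = 0.0172), a call lost without *VC Phf6,RE9a* replicate 12 (adjusted p = 0.0645). *Cxcl12*, the CXCR4 ligand and mainly a stromal product, had 12, 4 and 13 counts against 49, 67 and 58 (log2 fold change 2.45, standard error 0.4, adjusted p = 0.00235). *Ccl6* had 41, 94 and 64 counts in *WT Phf6,RE9a* and 369, 282 and 100 in *VC Phf6,RE9a* libraries (log2 fold change 1.77, adjusted p = 0.0232), with groups that overlapped in CPM. Its call was lost without *WT Phf6,RE9a* replicate 1 or 3 (adjusted p = 0.0727 and 0.0654) and without *VC Phf6,RE9a* replicate 11 or 12 (0.0807 and 0.0663). *Cx3cl1*, the CX3CR1 ligand, had 4 counts in 1 *WT Phf6,RE9a* library and 0 in the other 5. The CCR7 ligands *Ccl19* and *Ccl21a* and the CXCR5 ligand *Cxcl13* were at 0 in all 6.

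Genes that carry or end the receptor signal were called lower more often than higher. Of 35 tested, 18 were lower, 4 higher and 13 not called (62.86% called, beside 44.2% of all genes), with a median log2 fold change of -0.38. The GTPase-activating proteins *Rgs1* and *Rgs18*, which switch Gi signals off, were among the lowest. *Rgs1* fell from 1708 ± 644 to 128 ± 20.5 CPM (SD, n = 3; log2 fold change -3.74, standard error 0.3, adjusted p = 9.97e-05) and *Rgs18* from 69.2 ± 20.8 to 2.94 ± 1.12 CPM (log2 fold change -4.55, standard error 0.32, adjusted p = 6.2e-05). *Pik3r6*, a regulatory subunit of the PI3-kinase that receptors activate through G-protein beta-gamma subunits, fell from 73.5 ± 9.37 to 11 ± 2.24 CPM (log2 fold change -2.74, adjusted p = 4.7e-05). *Ptk2b*, a kinase of the focal adhesion family, fell with a log2 fold change of -1.69 (adjusted p = 9.33e-05). Of the 3 tested genes of the list with the highest CPM, *Rgs1* fell and the other two did not pass. *Tln1*, which links integrins to actin, had a log2 fold change of -0.25 (adjusted p = 0.071, but 0.0366 with DESeq2 and 0.0497 with limma on log2(FPKM + 1)). *Rac2*, the GTPase of blood cells, had one of -0.23 (adjusted p = 0.0879). Other genes of cell migration fell, among them *Rac1* (-0.44, adjusted p = 0.00386), *Dock2* (-0.46, adjusted p = 0.00367) and *Cdc42* (-0.44, adjusted p = 0.00693), which were named after their values were seen.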

How the data were processed

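The authors deposited 1 table with whole-number read counts per Ensembl gene for each of the 6 libraries, without normalization, beside FPKM values that the authors computed from those counts. The submitters' processing notes name Bowtie 0.12.0 and mm8, but 98.33% of the 54409 deposited genes with an identifier in GENCODE M21 had its start and end there, including all 9 receptors, so coordinates are given on GRCm38. The counting tool and strandedness are not given in the sources used here. The table also holds log2 fold changes, p-values and mean signal of the authors' own comparison, which were not used.

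Counts were filtered (filterByExpr), scaled (TMM) and compared between 3 *WT Phf6,RE9a* and 3 *VC Phf6,RE9a* libraries with edgeR 4.0.16 in R 4.3.3, with Benjamini-Hochberg adjustment over 14169 genes at a threshold of 0.05. The SE was taken as the size of a log2 fold change over the root of its F statistic, and intervals cover 95%. The code was tested on simulated data. No 2 libraries of a group agreed within sampling noise (chi-square of 11.8 to 46.4 per gene). Intervals and limits from counts cover counting error only, since reads are not independent molecules. Alternatives were DESeq2 1.42.0, RLE size factors, omission of the filter, a minimum of 10 counts per library, limma 3.58.1 on log2(FPKM + 1), and omission of single libraries.

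The receptors, pathway and marker lists were chosen with earlier results of these data known. Named genes are the 9 receptors, *Phf6*, in each pathway list the 3 tested genes with the highest CPM and the 3 with the smallest p, tested genes of the chromosome 9 cluster, and the first 2 of each marker list. Other names, and the ratio to neutrophil markers, were added after values were seen. Some genes that the lists could hold are not reported here, and counts over the lists leave them out.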

Additional observations from a re-analysis of the deposited data

How the results depend on the processing

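*Cxcr2*, *Cxcr4* and *Phf6* kept their direction and call in all 11 alternatives, with log2 fold changes from 1.79 to 3.9, 1.85 to 2.94 and -1.76 to -1.39. *Cx3cr1* kept them in the 10 that tested it, at -6.06 to -3.82, and was removed when at least 10 counts were asked of every library, because *VC Phf6,RE9a* replicate 13 has 8. That filter left 0 of the 9 receptors lower in place of 2, 1 other receptor lower in place of 2, 1 ligand higher in place of 2 and 0 genes of the chromosome 9 cluster lower in place of 1. Limma on log2(FPKM + 1) left 1 receptor and 0 cluster genes lower. DESeq2 and the fit with no count filter each called 2 other receptors higher in place of 1. With each library left out in turn, receptors lower ran from 1 to 2, other receptors higher from 0 to 2, ligands higher from 1 to 2, and cluster genes lower from 0 to 1. Among the named genes that were refitted, 3 that were not called turned sign when 1 library was omitted, running from -0.073 (without *VC Phf6,RE9a* replicate 11) to 0.69 for *Ccr1*, from -0.32 (*VC Phf6,RE9a* replicate 12) to 0.82 for *Ccr3* and from -0.079 (*VC Phf6,RE9a* replicate 11, and -0.03 for *WT Phf6,RE9a* replicate 2) to 0.24 for *Ccr9*. Other lost calls stand beside their genes. The cause of these losses was not tested. No paired analysis was possible because the groups share no replicate number. At 3 counts, about 0.2 CPM, depth limits *Ccr3*, *Ccr7*, *Cxcr3* and *Cxcr5*.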
